A study of Rattus norvegicus with 458 samples.

Results

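miR-451, miR-144 and miR-486, the miRNAs that mark red blood cells, were followed through 23 tissue labels of the rat. Every name of the deposited miRNA table was taken in which a part between semicolons was miR-451, miR-144 or miR-486 with any arm suffix. This rule selected 12 of 7534 names, namely 2 of miR-451, 2 of miR-144 and 8 of miR-486, and none of them was a precursor row. The isomiR table, which lists each sequence variant on its own, held 2772 of 264294 sequences under these names. Of the miR-486 names 5 hold the 5p arm and 3 hold the 3p arm, because a sequence that aligned to several precursors was given a composite name. The composite miR-3107-5p;miR-486-5p carried 66581574 counts and the name miR-486-5p alone 654340 counts. The names with the 5p arm were summed for all values given as miR-486-5p, and those with the 3p arm for all values given as miR-486-3p, unless a single name is stated.

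miR-144 and miR-451 are cut from a common primary transcript that the factor GATA1 switches on during red cell formation. The miR-451 hairpin is too short for Dicer, so Argonaute 2 cuts it and a ribonuclease then trims the 3′ end of the product, whereas miR-144 and miR-486 are released by Dicer. miR-486 lies within the ankyrin gene Ank1, which is used both in red cells and, from another promoter, in heart and skeletal muscle.

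Small RNA came from naive Sprague Dawley rats, 5 male and 5 female, aged 12 to 13 weeks. Whole blood and 18 other tissues were taken from all 10 rats, the testis from the 5 males, and the ovary and uterus from the 5 females. The dorsal root ganglion (DRG) was pooled over the animals of a sex, which gave 2 pools. Its RNA came from Takeda Pharmaceuticals according to the study's methods, and its libraries carry no rat number. The labels Muscle - Biceps and Muscle - Soleus are called biceps and soleus, and Cortex and Medulla are the parts of the kidney that the study's methods list. Rats were untreated and all groups shared strain and age, and the tissues were not stated to be freed of blood.

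The mature sequences below show what was counted, with the seed (bases 2 to 8 from the 5′ end) in capitals. Those of miR-451 and miR-144 were taken from RefSeq (assembly GRCr8), which matched 4 of the 12 names, and those of miR-486 are the most counted isomiR of the stated name in the deposited table.
miR-451-5p: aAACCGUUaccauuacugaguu
miR-451-3p: aUGGUAAUgguucucuugcugcu
miR-144-5p: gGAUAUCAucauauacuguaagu
miR-144-3p: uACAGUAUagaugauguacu
miR-3107-5p;miR-486-5p: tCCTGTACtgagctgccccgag
miR-486-5p: tCCTGTACtgagctgccccgagg
miR-486-3p: cGGGGCAGctcagtacaggat
The 4 RefSeq seeds all differ, and the composite and the single name of miR-486-5p share theirs.

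The hairpins are printed because the miR-451 hairpin is the shorter of the pair and holds its mature 5p product partly in the loop. Capitals mark the mature sequences, of which only the 5p arm is marked for Mir451a. Mir144 lies at chr10:63459397-63459479 and Mir451a at chr10:63459569-63459640 of GRCr8, both on the + strand, with 89 bases between them.
Mir144: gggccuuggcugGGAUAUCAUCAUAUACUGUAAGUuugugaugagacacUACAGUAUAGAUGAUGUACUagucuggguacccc
Mir451a: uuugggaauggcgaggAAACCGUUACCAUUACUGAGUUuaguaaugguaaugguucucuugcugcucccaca

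Library totals ranged from 376401 to 17725805 counts, with a median of 4816409, and the whole blood libraries held 4705379 to 9939192. CPM (counts-per-million) relates a count to the library total, and 1 count is worth most in the testis, whose libraries held 376401 to 653651. Some libraries stood apart. By their whole profile 10 of 215 libraries lay nearer to another tissue than to their label, with a median correlation higher by more than 0.05. None of these 10 was whole blood, liver, pancreas or muscle, and smaller margins were not counted. In 14 runs of 1 flow cell lane, none from whole blood, a median of 55.9% of the miR-486-5p reads carried an added base at the 5′ end, against at most 0.355% in the 444 other runs. The whole blood library of rat 6 held 3175 CPM of a list of 7 muscle miRNAs, almost all of it miR-133a-3p, while the 9 others held 8.81 to 154.5 CPM. In a solid tissue, blood left in the vessels and RNA made by the tissue itself cannot be told apart, nor can fewer cells and less RNA per cell.

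miR-451-5p, which restrains the adaptor protein gene Ywhaz in red cells, was highest in whole blood. Its level there was 5052 ± 1891 CPM (SD, n = 10), from 2307 over a median of 5038 to 9037. Liver followed with a lowest value of 609.8, a median of 803.9 and a highest of 1291 CPM, and heart with 446.1, 606.7 and 1081 CPM. No library of any other tissue reached the lowest whole blood library. The mean of liver was 17.1% and that of heart 13.7% of the whole blood mean, and the median tissue stood at 1.84%. The biceps (94.0 ± 29.6 CPM, n = 10) and the soleus (102.4 ± 21.5 CPM, n = 10) lay in the middle of the order. At the low end were jejunum with 12.1 ± 6.31 and ileum with 10.4 ± 2.85 CPM (n = 10 each). Of the 21 pairs of neighbours in this order, 3 differed beyond their spread by permutation tests, namely whole blood over liver, heart over kidney cortex, and glandular over non-glandular stomach. The plot of levels by library shows the order.

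**Figure D1:**
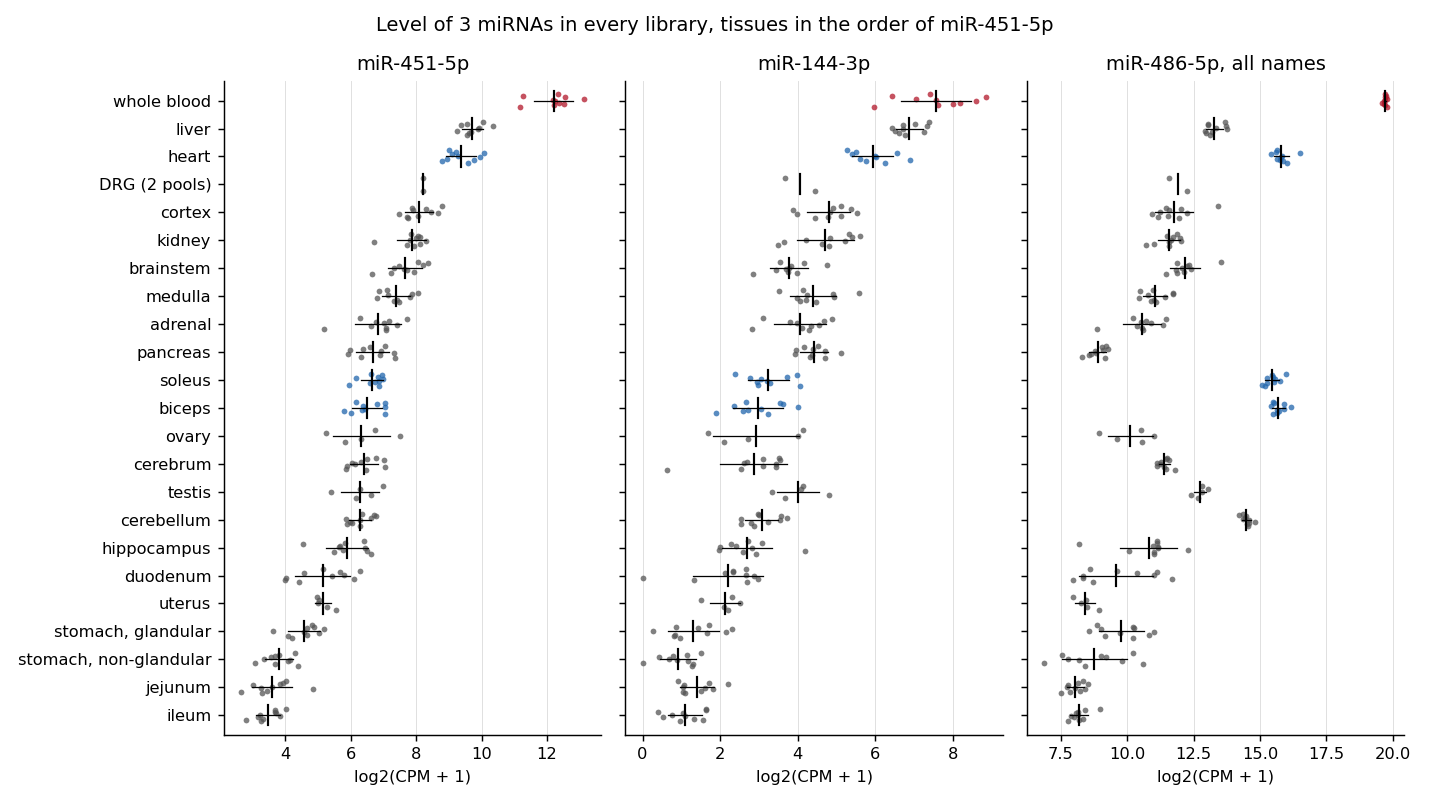
Each point is a library (a pool for DRG), placed by log2(CPM + 1) of miR-451-5p, miR-144-3p or miR-486-5p. Vertical bars are means and horizontal bars 1 SD, with whole blood in red and the 3 muscles in blue. Whole blood led for all 3 miRNAs, liver came next for miR-451-5p and miR-144-3p, and the 3 muscles came next for miR-486-5p.

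miR-144-3p, known for its action on the antioxidant factor Nrf2, was also highest in whole blood, with liver and heart next and at less distance. It was counted at 221.2 ± 127.0 CPM in whole blood (60.9 to 458.8, median 191.0, n = 10) and at 119.2 ± 30.2 CPM in liver (84.5 to 166.9, median 106.3, n = 10). All 10 liver libraries and 5 of the 10 heart libraries lay above the lowest whole blood library, so these groups overlapped. By permutation tests of 21 neighbouring pairs, 2 differed, namely liver over heart and heart over kidney cortex. Whole blood over liver was not called, with a difference of 0.69 in mean log2(CPM + 1) (permutation adjusted p = 0.159). Heart held 63.8 ± 25.8 CPM (n = 10), and non-glandular stomach was lowest with 0.970 ± 0.57 CPM (n = 10). Its sister arm miR-144-5p was counted at 1049 ± 367 CPM in whole blood, and its liver mean of 137.0 CPM was 13.1% of that. No library of another tissue overlapped whole blood for miR-144-5p.

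miR-451-3p, the arm that is degraded when Argonaute 2 cuts the hairpin, was rare. It stood at 31.6 ± 10.7 CPM in whole blood (11.6 to 46.5, n = 10) and at 1.89 CPM on average in liver, the next tissue. It had 0 counts in the 5 testis libraries together, which allows up to 1.24 CPM (3 counts in 2426945, counting error only).

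miR-486-5p, which acts on the factor Foxo1 in muscle, took 85.9% ± 3.12 of all counts in whole blood (80.2% to 91.1%, median 85.8%, n = 10). The 3 muscles came next. Heart ranged from 44077 over a median of 56073 to 92567 CPM, biceps from 43509 over 51038 to 74137 CPM, and soleus from 34518 over 45543 to 64758 CPM (n = 10 each). These ranges overlapped with each other and lay far below whole blood, at 6.81%, 6.25% and 5.34% of its mean. Cerebellum followed with 23157 ± 2740 CPM (n = 10), below every muscle library, and then liver with 10167 ± 2354 CPM (n = 10). Jejunum was lowest with 269.5 ± 60.7 CPM (n = 10). By permutation tests of 21 neighbouring pairs, 4 differed, among them whole blood over heart, soleus over cerebellum and cerebellum over liver, whereas heart, biceps and soleus did not differ from their neighbours within the muscles.

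The other miR-486 names were small beside the composite, and 1 of them moved with the sequencing lane. The single name miR-486-5p had 6896 ± 748 CPM in whole blood (n = 10). In biceps it had a median of 518.0 CPM but 1 library at 12689 CPM, and the mean of 1726 ± 3852 CPM (n = 10) fell to 520.6 ± 55.2 CPM once the lane with the added 5′ base was left out. Heart and soleus each had 1 such library as well, at 10334 and 8136 CPM. The composites with a predicted miRNA as a further part had 244, 5295, 94 and 3 counts in all libraries together, and the last 2 did not pass the filter on low counts.

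To ask which tissues held less than whole blood, counts were fitted with edgeR's quasi-likelihood test after upper quartile scaling, over 1641 names. Of the 12 names 10 were tested, and all 10 were called lower than whole blood in all 22 tissues, at adjusted p values of 0.00535 or less, although calls of the miR-486-3p names in biceps and soleus were lost under other scalings. Of all names tested, 7.43% were called lower in all 22 tissues. The 2 that were not tested are the composites with 94 and 3 counts. Among those tested, the composite with 244 counts averaged 2.36 CPM in whole blood and at most 0.42 CPM in another tissue. For miR-451-3p these means were 31.6 and 1.89 CPM. The filter on low counts could have kept both through whole blood alone, so their calls add little. The log2 fold change of whole blood over liver was 5.21 for miR-451-5p, 3.37 for miR-144-3p, 5.39 for miR-144-5p and 8.95 for the composite of miR-486-5p, and 20.5% of all names were lower in liver than in whole blood. Over heart it was 5.37 for miR-451-5p, 4.13 for miR-144-3p and 6.30 for the composite, with 20.5% of all names lower in heart.

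These folds depend on the scaling. In the liver contrast miR-451-5p stood at 4.35 with trimmed mean (TMM) scaling and at 5.35 with relative log expression (RLE) scaling, and its mean log2(CPM + 1) differed by 2.48. For miR-144-3p the fold of 3.37 became 2.60 with TMM scaling, and its mean log2(CPM + 1) differed by 0.69, which was not called. As CPM of the counts outside miR-486-5p alone, miR-451-5p was at 37115 ± 18719 in whole blood (19823 to 87426, n = 10) and at 871.8 ± 209.3 in liver (n = 10), which is 2.35% of whole blood. For the names of miR-486-3p in muscle the call depended on the scaling, and for the single name in biceps the direction as well. Its CPM was higher in biceps (278.1 ± 54.1, n = 10) than in whole blood (79.5 ± 18.4, n = 10), with no overlap. The model called it lower in biceps by a log2 fold change of 1.02 of whole blood over biceps (SE 0.326, adjusted p = 0.00535), whereas TMM scaling gave -0.47 (adjusted p = 0.272) and RLE scaling 0.06 (adjusted p = 0.991). In soleus its fold of 1.73 fell to 0.35 with TMM scaling (adjusted p = 0.446). The composite miR-3107-3p;miR-486-3p also had a higher mean CPM in biceps (61.3 ± 15.9, n = 10) than in whole blood (42.5 ± 12.2, n = 10), with overlap, and its fold of 2.24 of whole blood over biceps fell to 0.78 with TMM scaling (adjusted p = 0.128).

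A ratio inside 1 library does not depend on its total. The ratio of miR-486-5p to miR-451-5p asks whether a tissue holds both in the proportion of blood. On the log2 scale it was 7.51 ± 0.605 in whole blood (6.63 to 8.63, median 7.40, n = 10). Biceps stood above blood at 9.20 ± 0.47 (8.47 to 9.96, median 9.24, n = 10), and so did soleus at 8.82 ± 0.322 (8.33 to 9.37, median 8.75, n = 10) and cerebellum at 8.23 ± 0.440 (7.52 to 8.86, median 8.31, n = 10). In biceps 8 of 10 libraries exceeded the highest whole blood library, in soleus 7 and in cerebellum 2. Permutation tests called all 21 tissues different from whole blood, 3 higher and 18 lower, with the largest adjusted p of 0.00966 in testis. Heart was lower (6.44 ± 0.351, 5.83 to 7.06, n = 10), with 8 libraries under the lowest whole blood library. Liver (3.56 ± 0.163, n = 10) and pancreas (2.23 ± 0.550, n = 10) lay wholly below blood, as did 15 of the 21 tissues. Pancreas was lowest of all, 5.28 log2 units below whole blood. Its 10 libraries were all made from RNA extracted again, and their RNA integrity numbers of 4.9 to 6.8 lay below the 7.4 to 8.4 of whole blood, the part of which in the pancreas values was not tested.

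**Figure D2:**
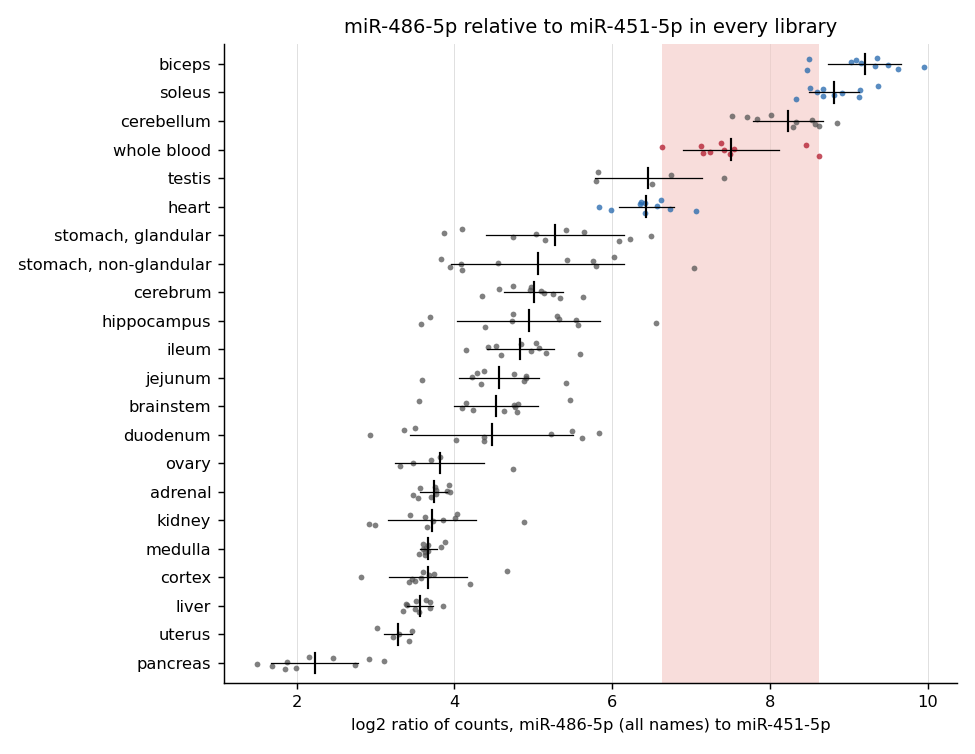
Each point is a library, placed by the log2 ratio of miR-486-5p counts (all names) to miR-451-5p counts, with the mean and 1 SD as bars. The shaded band is the range of whole blood, 6.63 to 8.63, and biceps, soleus and cerebellum have higher means than whole blood while all other tissues have lower ones.

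The muscles were also set against the 15 other solid tissues taken from all 10 rats, as means per rat. The main permutation test compared these means without pairing them by rat. The mean log2 ratio of miR-486-5p to miR-451-5p was 8.15 ± 0.266 over the 3 muscles (7.74 to 8.61, n = 10 rats) and 4.50 ± 0.155 over the other tissues (4.23 to 4.71, n = 10 rats). The groups did not overlap, and the difference of 3.65 had a permutation p of 3e-05, the smallest these resamples gave. It was 1.94 for heart, 4.70 for biceps and 4.32 for soleus, each with the same p after adjustment. Whole blood itself held 8.81 to 154.5 CPM of the muscle miRNAs outside rat 6, and leaving out each rat in turn moved the biceps difference from whole blood only between 1.57 and 1.90.

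In counts, the muscles held more of the miR-486 names than the mean of the other solid tissues, that is all labels but whole blood and the 3 muscles. The composite was higher by a log2 fold change of 5.57 in heart (SE 0.185), 5.00 in biceps (SE 0.180) and 4.73 in soleus (SE 0.177), with adjusted p values of 3.72e-71, 3.98e-66 and 1.57e-63 by edgeR. All 6 of the miR-486 names that were tested were called higher in each of the 3 muscles, while 29.6% of all names were called higher in heart, 18.9% in biceps and 19.5% in soleus. Among the 6, the composite with 244 counts in all libraries averaged at most 0.42 CPM in a solid tissue. Its calls rest on few counts and add little. The largest folds were those of the 3p arm in biceps, 6.74 for miR-3107-3p;miR-486-3p (SE 0.256) and 6.66 for the single name miR-486-3p (SE 0.206). For the single name miR-486-5p, the fold fell from 5.85 to 5.27 in biceps, from 5.78 to 5.17 in heart and from 5.27 to 4.47 in soleus once the lane with the added base was left out.

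The miR-144 and miR-451 names split the muscles. All 4 were higher in heart, by 3.70 for miR-451-5p (SE 0.153, adjusted p = 7.90e-58), 3.48 for miR-144-3p, 3.76 for miR-144-5p and 3.69 for miR-451-3p. The fold of miR-451-3p rests on few counts, since it averaged at most 1.89 CPM in a solid tissue. In biceps none of the 4 passed the test, with 0.36 for miR-451-5p (SE 0.195, adjusted p = 0.167) and -0.07 for miR-144-3p (SE 0.279, adjusted p = 1). In soleus miR-144-5p alone was called, by 0.57 (adjusted p = 0.0318), a call that was lost when all deposited runs were summed (0.53, adjusted p = 0.0521) or when rat 4, 7 or 11 or a DRG pool was left out, and miR-451-5p stood at 0.42 (SE 0.193, adjusted p = 0.0847). With the rat as a block, miR-451-5p was called higher in both, by 0.56 in biceps (adjusted p = 0.00383) and 0.62 in soleus (adjusted p = 0.00122). No member was called lower in the 30 tests, by edgeR at an adjusted or an unadjusted p of 0.05 or by DESeq2, against 9.99% of all names in heart, 13.9% in biceps and 12.2% in soleus.

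Within the miR-144 and miR-451 cluster, the products were not in 1 proportion across tissues. The log2 ratio of miR-144-3p to miR-451-5p was lowest in whole blood, at -4.65 ± 0.716 (-6.10 to -3.67, median -4.61, n = 10). Liver stood at -2.86 ± 0.331 (-3.52 to -2.44, n = 10), pancreas, with the low integrity numbers given above, at -2.30 ± 0.254 (-2.69 to -2.03, n = 10) and testis at -2.28 ± 0.398 (-2.86 to -1.81, n = 5). All libraries of these 3 tissues, of adrenal and of kidney medulla lay above the highest whole blood library. Permutation tests called 18 of 21 tissues higher than whole blood and none lower, and the 3 that were not called were cerebrum and both parts of the stomach, at adjusted p values of 0.0669 to 0.129. Biceps (-3.72 ± 0.441, n = 10), soleus (-3.55 ± 0.516, n = 10) and heart (-3.47 ± 0.340, n = 10) were higher than blood while overlapping with it.

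The arms of miR-144 changed place. In whole blood the 5p arm exceeded the 3p arm, with a log2 ratio of miR-144-5p to miR-144-3p of 2.39 ± 0.378 (1.69 to 2.91, median 2.46, n = 10). In liver the arms were nearly even, at 0.24 ± 0.320 (-0.20 to 0.63, median 0.35, n = 10). In pancreas the 3p arm exceeded the 5p arm in all 10 libraries, at -1.56 ± 0.445 (-2.38 to -0.84, median -1.56, n = 10), again in RNA of integrity numbers 4.9 to 6.8. Heart (0.55 ± 0.371, n = 10), biceps (0.65 ± 0.527, n = 10) and soleus (0.70 ± 0.344, n = 10) lay between. All 21 tissues were called lower than whole blood by permutation tests, the largest adjusted p being 0.00051, and 16 lay wholly below it. Denominators fell to 0 counts in a library of duodenum and of non-glandular stomach, so single libraries there are poorly measured.

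**Figure D3:**
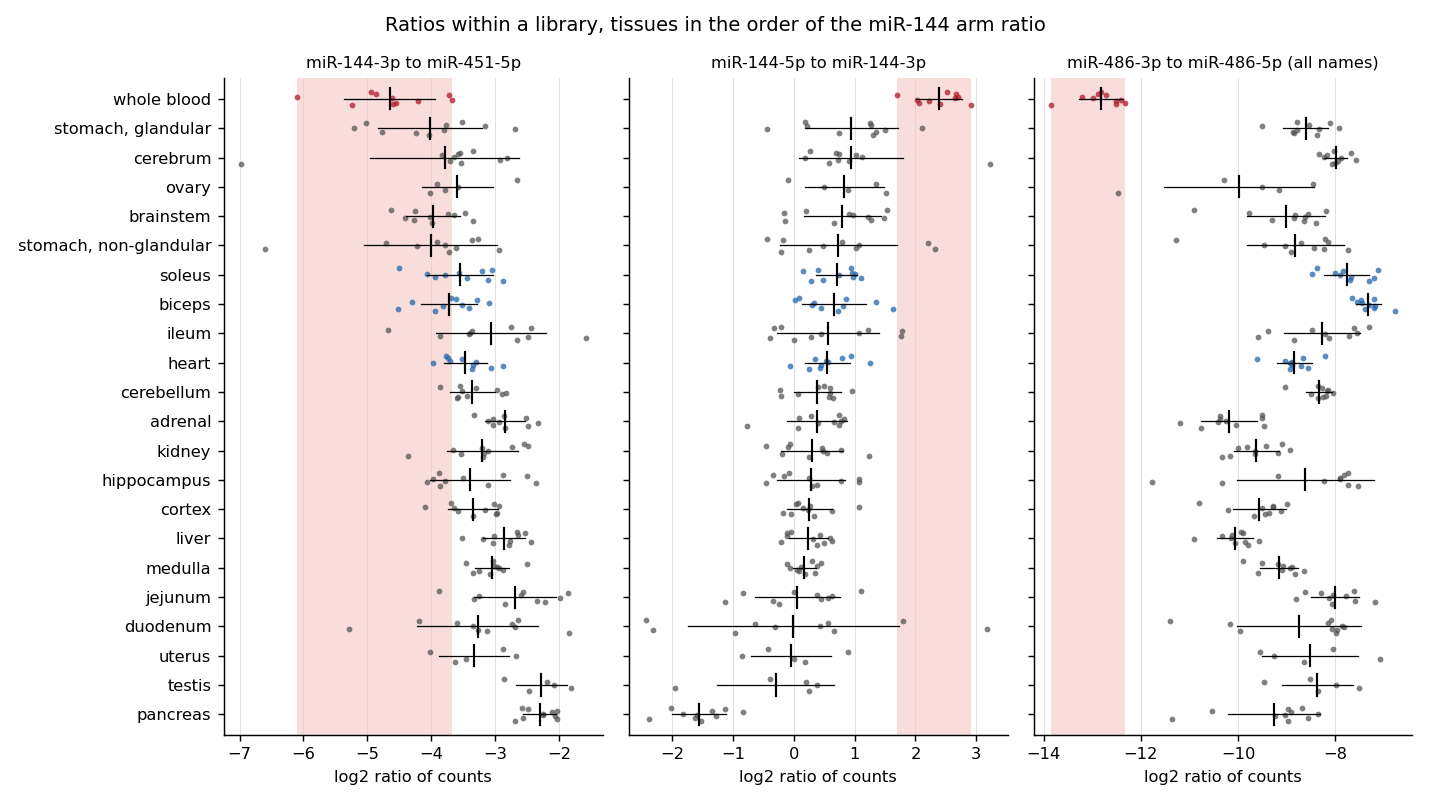
Each point is a library, placed by the log2 ratio of counts of miR-144-3p to miR-451-5p, of the miR-144 arms, and of the miR-486 arms, with means and 1 SD as bars. Shaded bands are the ranges of whole blood, which has the lowest mean for the ratio to miR-451-5p and for the miR-486 arms and the highest for the miR-144 arms.

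The minor arm of miR-486 had its smallest share in whole blood. The log2 ratio of miR-486-3p to miR-486-5p was -12.83 ± 0.456 in whole blood (-13.86 to -12.34, median -12.77, n = 10). It was -7.31 ± 0.249 in biceps (-7.64 to -6.76, n = 10), -7.76 ± 0.464 in soleus (n = 10), -8.84 ± 0.364 in heart (n = 10) and -10.06 ± 0.366 in liver (n = 10). All 21 tissues were called higher than whole blood and 20 lay wholly above it, the ovary with 1 library inside the blood range being the exception. Biceps lay furthest, 5.51 log2 units above whole blood (permutation adjusted p = 3.5e-05). This ratio was chosen after its values were seen. The first run of each library shared a lane with whole blood. The log2 level of miR-486-5p in the second run minus that in the first had a median of 0.0172 in the 125 libraries whose second lane also held whole blood, and of 0.0124 in the 80 whose second lane held none. The lower quartile was -0.0334 in the former and -0.216 in the latter. The upper quartiles were alike, at 0.0848 and 0.0798, so for miR-486-5p only the spread towards lower levels was wider without whole blood. The lane with the added 5′ base held no whole blood, so second runs from it are in the latter group. Its part in this spread was not tested. For miR-451-5p the lower quartiles were -0.150 with and -0.170 without whole blood in the second lane. Whether a lane shared with whole blood moved these levels was not tested.

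The ratio of miR-451-3p to miR-451-5p was called lower than whole blood (-7.31 ± 0.653, n = 10) in 13 tissues, higher in 3 and neither in 5 by permutation tests. The 3p arm had 0 counts in at least 1 library of 17 of the 21 tissues, and in liver its lowest library held 2 counts. Such counts did not give a stable order. With a pseudocount of 1 in place of 0.5 the tissues called lower numbered 6, and on the first flow cell alone 13 were called higher and 1 lower.

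The 3′ end of miR-451-5p is the end that is trimmed. The 4 most counted sequences of the name are printed with the bases past the RefSeq mature end in capitals, and all 4 match the hairpin.
miR-451-5p of 23 bases: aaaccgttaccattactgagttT
miR-451-5p of 26 bases: aaaccgttaccattactgagttTAGT
miR-451-5p of 22 bases: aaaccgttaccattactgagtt
miR-451-5p of 21 bases: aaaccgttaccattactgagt
In whole blood they took 52.5% ± 2.54, 15.5% ± 3.02, 13.4% ± 2.29 and 7.19% ± 2.40 of the counts of miR-451-5p (n = 10). In liver the 23-base sequence took 50.0% ± 4.71 and the 26-base sequence 12.9% ± 2.04 (n = 10). Over the 30 muscle libraries, which come from the same 10 rats, they took 46.9% ± 9.11 and 12.5% ± 3.32. The 5′ end was nearly fixed, since 99.85% ± 0.0615 of the whole blood counts began at the most frequent base and 97.1% ± 2.26 matched the hairpin to their last base. In heart, biceps and soleus 94.7% ± 16.4, 94.1% ± 18.3 and 94.5% ± 16.6 began there (n = 10 each). The muscles include libraries from the lane that added a 5′ base, whose reads with that base do not count as the 23-base sequence.

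By length, the counts of miR-451-5p had a main and a smaller peak with few counts between. Of all its counts there, 55.0% were 23 bases long, 2.75% were 24, 3.535% were 25 and 16.96% were 26. Longer sequences were rare, with 0.1905% at 27 bases, of which 180 of 651 counts matched the hairpin, and 0.00468% at 30 bases, or 16 counts. At 24 bases, 1 library of each muscle held 28.8% to 32.3% of its counts, and brought the means of heart, biceps and soleus to 5.30% to 5.46%. Without the lane that added a 5′ base these means were 2.50%, 2.69% and 2.47%, beside 2.60% in whole blood and 2.80% in liver, neither of which changed.

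**Figure D4:**
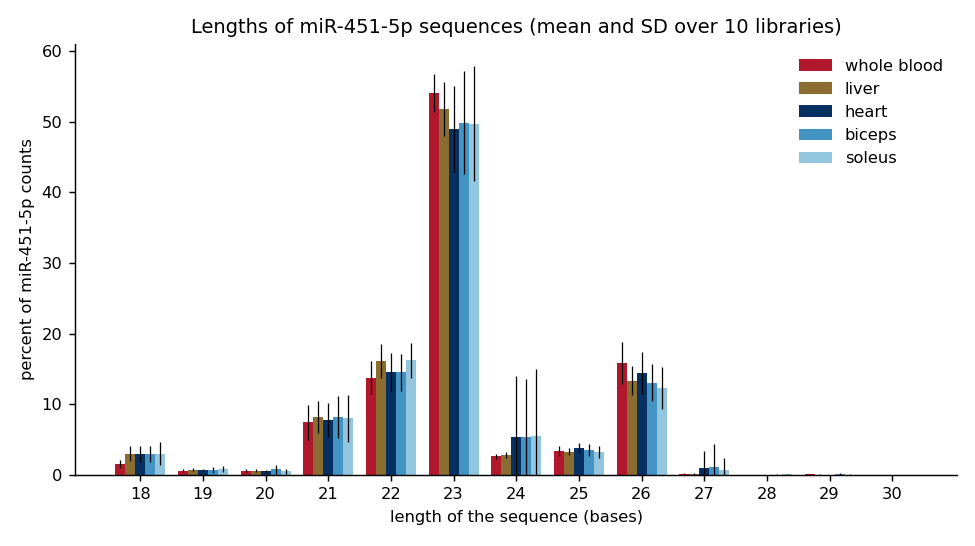
Bars give the mean percent of miR-451-5p counts at each length in bases for whole blood, liver, heart, biceps and soleus, with 1 SD over 10 libraries. All 5 tissues peak at 23 bases and again at 26 bases.

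The mean 3′ end is counted in bases past the end of the 23-base sequence. It was 0.181 ± 0.209 in whole blood (-0.122 to 0.565, median 0.140, n = 10). Liver stood at -0.0215 ± 0.188 (n = 10), heart at 0.0595 ± 0.186 (n = 10), biceps at 0.00475 ± 0.206 (n = 10) and soleus at -0.0506 ± 0.188 (n = 10), all overlapping with blood and not called. With the rat as a block, liver (adjusted p = 0.0277) and soleus (adjusted p = 0.0427) were called lower by exact sign-flip permutation tests, and soleus was also called without rat 10 or rat 11. Permutation tests, exact where a group had under 10 libraries, called 4 of 17 tissues lower than whole blood. They were uterus (-0.233 ± 0.0230, n = 4), adrenal (-0.161 ± 0.0674, n = 9), kidney medulla and cerebrum, and none was called higher. Leaving out the lane with the added base lowered this count to 2, and pairing by rat raised it to 7. Libraries with under 100 counts of miR-451-5p were left out, which removed testis, jejunum and ileum altogether and left 3 libraries of non-glandular stomach.

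The spread of the 3′ ends was measured as an effective number, which is the number of equally used ends that would give the same chance that 2 reads end at the same base. For miR-451-5p it was 2.90 ± 0.22 in whole blood (2.47 to 3.21, median 2.87, n = 10). It was 3.11 ± 0.297 in liver, 3.16 ± 0.235 in heart, 3.15 ± 0.282 in biceps and 3.11 ± 0.374 in soleus (n = 10 each). Called higher than whole blood by permutation tests were 3 tissues, namely uterus (3.404 ± 0.205, n = 4), adrenal (3.26 ± 0.153, n = 9) and cerebrum (3.24 ± 0.303, n = 10). Without the lane with the added base 1 tissue was called higher, and without rat 6 there were 8.

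Within whole blood, miR-451-5p had more 3′ ends than the members that Dicer releases. miR-486-5p had an effective number of 2.68 ± 0.0960 (2.59 to 2.84, n = 10), lower than miR-451-5p by 0.22 and in 9 of 10 rats (exact sign-flip permutation test, adjusted p = 0.00586). miR-144-3p had 1.62 ± 0.131 (n = 10) and miR-144-5p 1.48 ± 0.0300 (n = 10). These lay under miR-451-5p by 1.27 and 1.42 and in all 10 rats (adjusted p = 0.00293 by the same exact permutation test). The unadjusted p of 0.00195 was the smallest that this test could give. miR-451-3p had 1.30 ± 0.0548 (n = 10) and was not tested, since its lowest library held 66 counts. Among the 83 well counted names of whole blood, miR-451-5p ranked 20, with a median name at 2.04 and the highest at 4.93, so other miRNAs also had widely spread ends. miR-486-5p was mostly 22 and 23 bases long (41.5% and 42.3%), miR-144-5p 23 (80.4%) and miR-144-3p 20 (70.1%).

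**Figure D5:**
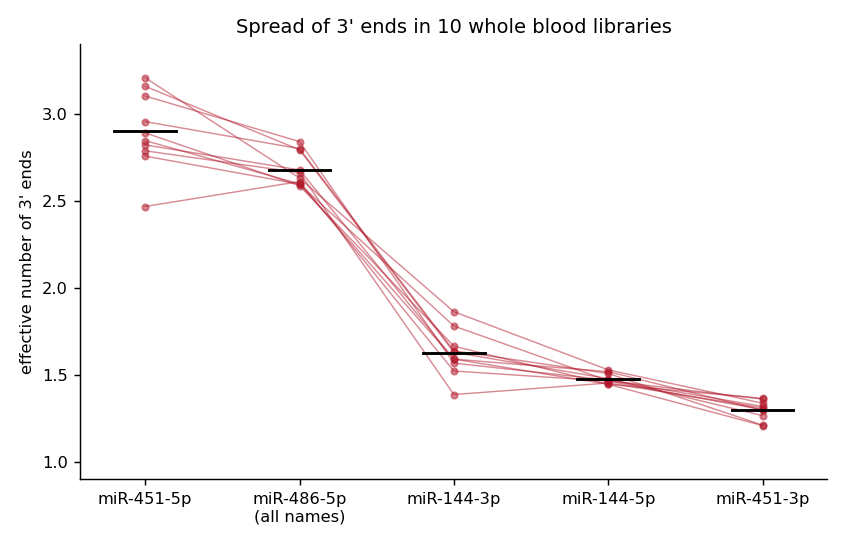
Each line joins the 5 members measured in 1 whole blood library by their effective number of 3′ ends, and black bars are means over the 10 libraries. miR-451-5p has the highest mean, 2.90, followed by miR-486-5p at 2.68.

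Between the sexes no member was called in any of the 5 tissues examined (edgeR, female against male, 1122 names). Of the 50 tests 5 had an unadjusted p under 0.05, and DESeq2 called 1, the single name miR-486-5p in biceps (2.91, adjusted p = 0.0228). That name moves with the lane that added a base, and the sexes were not tested without this lane. In whole blood 5.53% of all names were called, in liver and heart 0.0891% each, in biceps 0.178% and in soleus 0.0%. miR-451-5p in the blood of males was 6054, 9037, 4605, 4897 and 5310 CPM in rats 2 to 6, and in that of females 5919, 4727, 2307, 5179 and 2485 CPM in rats 7 to 11. The ranges overlapped, and the lowest 2 values were female. The log2 fold change of female over male was -0.79 (SE 0.369, adjusted p = 0.212), and that of miR-144-3p -1.004 (SE 0.484, adjusted p = 0.232). The RNA integrity number was 8.0 to 8.4 in the blood of males and 7.4 to 7.7 in that of females, without overlap, and its part in these values was not tested. With TMM scaling, or without rat 7, miR-451-5p was called lower in females, by log2 fold changes of -1.02 (adjusted p = 0.0423) and -1.15 (adjusted p = 0.0377). Without rat 7, miR-144-3p was called as well, at -1.46 (adjusted p = 0.0376).

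Between rats, the levels of members were compared within each tissue. miR-451-5p and miR-144-3p had a positive Pearson correlation of log2(CPM + 1) over 10 rats in all 19 tissues, with a median of 0.682. By permutation, 10 of the 19 passed an adjusted p of 0.05 for Pearson and 4 for Spearman. The highest was kidney medulla, with r = 0.93 (permutation p = 0.0001, adjusted 0.0019) and rho = 0.92 (permutation p = 0.00044, adjusted 0.00836), and r = 0.94 without the 2 libraries farthest from the median. In whole blood r was 0.62 (permutation p = 0.0524, adjusted 0.0765) and rho 0.52 (permutation p = 0.133, adjusted 0.169), and r fell to -0.30 without 2 libraries, so it rested on them. miR-451-5p and miR-486-5p passed in 4 of 19 tissues by Pearson. Among them was liver, with r = 0.87 (permutation p = 0.00061, adjusted 0.00386), rho = 0.85 (permutation p = 0.00275, adjusted 0.0174) and r = 0.83 without 2 libraries. In biceps r was 0.24 (permutation p = 0.506, adjusted 0.567) and rho 0.00606 (permutation p = 1, adjusted 1), with r = 0.66 without 2 libraries. In whole blood r was -0.32 (permutation p = 0.357, adjusted 0.452) and rho -0.36 (permutation p = 0.312, adjusted 0.502), with r = 0.51 without 2 libraries. Both levels of a pair share the library total.

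Across the 23 tissue labels, the names most like miR-451-5p by the Pearson correlation of log2(mean CPM + 1) were members. They were miR-144-5p (r = 0.98), miR-144-3p (r = 0.97), a composite of miR-486-5p (r = 0.80), miR-451-3p (r = 0.79) and the main composite of miR-486-5p (r = 0.77). With whole blood left out, the r with miR-144-5p was 0.98 and that with the main composite 0.64. For the main composite the nearest were a further composite of it (r = 0.96), miR-3107-5p (r = 0.95), the single name miR-486-5p (r = 0.94), miR-3107-3p;miR-486-3p (r = 0.92) and miR-486-3p (r = 0.90). Among the 5 names nearest to miR-144-3p were 2 that are no members, miR-25-3p (r = 0.75) and miR-423-5p (r = 0.74). The points are tissue means from the same libraries, and these correlations are descriptions.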

How the data were processed

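Small RNA libraries (TruSeq, HiSeq 2000) were made by the authors, who trimmed reads with cutadapt 1.4.1 per the labels and assigned them to miRNA names. The deposited tables hold raw counts of reads per miRNA name and per isomiR sequence for each run, without normalization. According to the methods of the study, miRDeep2 aligned the reads to known precursors of the database miRBase. Those of rat came first, and reads not yet named were then looked for in mouse and further species. Alignment to the rat genome RN5 served to predict further miRNAs. Here 458 runs were summed to 215 libraries, with 14 runs that repeat a flow cell lane left out, and the technical libraries of each DRG pool were summed, which gave 207 samples. CPM is the count divided by the library total, so in whole blood it moves with miR-486-5p.

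Fold changes came from edgeR 4.0.16 in R 4.3.3 (glmQLFit and glmQLFTest, upper quartile scaling, filterByExpr on tissue) fitted on the whole table, with p values adjusted by Benjamini-Hochberg over all names tested within a contrast. The fit of the sexes used 190 libraries of 19 tissues. DESeq2 1.42.0, other scalings, no filter, other runs, 35 re-extracted libraries or the 10 libraries out of place left out, and each rat left out were alternatives. With no filter the scaling factors were those of the filtered names, since the upper quartile over all names is 0. On simulated counts both kinds of contrast (whole blood over liver, muscle over other tissues) recovered 100% of 200 changed names among 1113, with 17 and 10 unchanged names called. The simulated tissues differed only in the changed names. The uneven composition of the whole blood counts was not simulated, so this recovery does not bear on how the folds depend on the scaling.

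Log2 ratios were of counts plus 0.5. They and the 3′ ends were compared by two-sided permutation tests (100000 resamples, exact for groups under 10) in Python 3.11.15 with scipy 1.17.1, adjusted over tissues. To find its ends, each sequence was aligned over 16 bases, with up to 1 mismatch, to the sequence of its name that had most counts. Libraries with under 100 counts of miR-451-5p and tissues with under 4 such libraries were not tested for 3′ ends.

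Tissues of 1 rat are paired by the animal, as the labels give it. Deviations from the tissue means were correlated between libraries, and the median was 0.0159 for 2000 pairs within a rat and -0.0064 for 18025 pairs between rats. The main fits have no block for the rat, after the study's methods, and blocked fits were alternatives. Named were all members, for likeness the 5 most correlated names, for lists the 2 highest names in whole blood, and for tissues the highest, the lowest, whole blood, liver and the 3 muscles. Other tissues named for a call were chosen after their values were seen. The members, lists and tests were chosen with earlier results of these data known. p values over rats measure the spread between animals, while the DRG pools are 2 samples.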

Additional observations from a re-analysis of the deposited data

Results flagged for a closer look

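In 133 groups of 4 to 10 libraries behind the values above, the highest or lowest library was compared with its nearest neighbour relative to the range of the group. It stood apart in 10 groups, and chance flags about 1 in 20 groups, or about 7 here. The clearest case was the summed muscle list in the whole blood of rat 6, at 3175 CPM against 154.5 in the next library. In muscle, miR-486-5p stood apart in the heart of rat 2 at 92567 CPM (next 66115), and the log2 ratio of miR-486-3p to miR-486-5p in the biceps of rat 9 at -6.76 (next -7.18). That ratio was also low in the cerebellum of rat 11 at -9.02 and in the non-glandular stomach of rat 11 at -11.28. The log2 ratio of miR-144-3p to miR-451-5p was low in the non-glandular stomach of rat 7, at -6.60, a library with 0 counts of miR-144-3p. In the small intestine, miR-144-5p reached 3.99 CPM in the ileum of rat 3, miR-486-5p 501.9 CPM in the ileum of rat 10 and miR-451-5p 27.6 CPM in the jejunum of rat 6. The mean 3′ end of miR-451-5p was -0.687 in the hippocampus of rat 11 (next -0.243). Whether any of these moves with handling was not tested.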

How the results depend on the processing

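Of 2571 recomputed values, 2495 kept their direction and side of the threshold, or, for counts, stayed within 1.5 times. The 10 members tested were called lower than whole blood in 20 to 22 tissues under every alternative run, 21 being all that remained where DRG could not be tested. Calls were lost for miR-486-3p in biceps with TMM, RLE, DESeq2, no filter and the first flow cell alone (adjusted p 0.0514 to 0.991) and in soleus with TMM (0.446), and for miR-3107-3p;miR-486-3p in biceps with TMM (0.128). The muscle difference in the ratio of miR-486-5p to miR-451-5p and the miR-144 and miR-486 arm ratios against whole blood kept their calls in all settings run for them.

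The ratio of miR-451-3p to miR-451-5p changed most: 6 tissues were lower with a pseudocount of 1, and on the first flow cell alone 13 were higher and 1 lower, with biceps and soleus reversed to 0.70 and 0.67. For the mean 3′ end, 4 tissues called lower became 2 with the most frequent 5′ end alone, with the first flow cell alone and without the lane with the added base (an alternative chosen after seeing the data), and 2 to 5 when each rat was left out. For the effective number, 3 tissues called higher became 1 with a minimum of 30 counts, with hairpin-matching sequences alone and without that lane, and 1 to 8 when each rat was left out, and 1 tissue was called lower with a minimum of 300 counts. The cause of these changes was not tested.

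miR-451-5p in biceps was called higher with TMM (0.44), RLE (0.50), DESeq2 (0.50) and the first flow cell alone (0.75). In soleus it was called with RLE (0.44), DESeq2 (0.44), the first flow cell alone (0.65), without the 10 libraries out of place (0.48), and lay at 0.35 to 0.51 when each rat was left out. Female over male in whole blood, miR-451-5p was called with TMM (-1.02) and lay at -1.15 to -0.33 when each rat was left out, and miR-144-3p at -1.46 to -0.61, called without rat 7.

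With the rat as a replicate block, miR-451-5p was called higher in biceps (0.56) and soleus (0.62), the tissues lower in mean 3′ end numbered 7, and 1 tissue had a lower effective number. It also called miR-451-3p higher in soleus (0.90) and the mean 3′ end lower in liver and soleus, lost the ratio of the miR-451 arms in soleus, and changed no other call. For the sexes no paired fit was possible because the rat is nested in sex.

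TMM moved the median of all names against whole blood by -1.21 to -0.04 on the log2 scale, and the share of calls that were higher in whole blood by -33.8 to -14.0 percentage points. In liver 337 names were lower and 270 higher than whole blood, against 243 and 343 with TMM. Testis libraries are the shallowest and limit miR-451-3p there.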

Other observations

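Other markers of blood cells were set beside the members in the whole blood libraries. A list of 12 further miRNAs that are abundant in red cells summed to 44027 ± 10636 CPM in whole blood (25718 to 60386, n = 10), led by miR-92a-3p with 18808 CPM and miR-16-5p with 16007 CPM on average. Against liver 10 of its 12 names were called higher in whole blood and 1 lower, where 20.5% of all names were higher in whole blood, with a median log2 fold change of 3.42 beside 0.0 for all names. The list summed to 45214 ± 2919 CPM in testis (n = 5), within the range of whole blood. Against biceps all 12 were higher, with a median of 5.63 beside 0.36 for all names tested. In biceps 10 and in soleus 9 of these 12 were called lower than in the solid tissues without muscle, with median log2 fold changes of -1.32 and -1.06 beside -0.31 and -0.28 for all names, whereas in heart 9 were higher, with a median of 0.63 beside 0.23 for all names. A list of 6 leukocyte miRNAs summed to 1516 ± 567 CPM in whole blood (n = 10), led by miR-142-5p with 1008 CPM and miR-150-5p with 299.2 CPM. It summed to 3334 ± 450 CPM in liver and 3290 ± 383 CPM in heart (n = 10 each), above its CPM in whole blood, while after scaling 3 of 6 names were called higher in whole blood than in liver and 4 of 6 than in heart, beside 20.5% of all names in both.

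Markers of other tissues were low in whole blood. The liver miRNA miR-122-5p had 6.38 ± 3.23 CPM there against 33952 ± 4091 CPM in liver (n = 10 each), and a pair of neuronal miRNAs, led by miR-9a-5p, summed to 6.67 ± 2.99 CPM in whole blood (n = 10). The muscle list, led by miR-133a-3p, had a median of 37.4 CPM in whole blood and a mean of 297955 CPM in biceps. Of the 7 muscle names, 6 were called higher in heart and in biceps than in the other solid tissues, and all 7 in soleus, beside 29.6%, 18.9% and 19.5% of all names.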
